A study of Danio rerio with 17 samples.

Results

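The smooth muscle contractile core comprised 10 genes of the 30220 in the deposited table, taken by gene symbol: acta2, tagln, cnn1a, cnn1b, myh11a, myl9a, lmod1b, smtna, smtnb and mylka. Each symbol matched 1 row. Their RNA was followed in 17 libraries from zebrafish embryos of 3 transgenic lines, whose cells had been dissociated and sorted by reporter fluorescence into 6 groups. The line Tg(acta2:egfp), called the acta2 line here, gave 3 positive libraries labelled mural and 3 negative libraries labelled non-mural at 4 days post fertilization. Tg(acta2:mcherry);(foxc1b:egfp), the acta2/foxc1b line, gave 2 positive (mural) and 3 negative (non-mural) libraries at 4 days, and which of its colors defined a positive cell is not stated in the labels. Tg(kdrl:mcherry), the kdrl line, gave 3 positive (endothelial) and 3 negative (non-endothelial) libraries at 5 days, from cells fixed before the sort. The reporter of both acta2 lines is driven by the promoter of acta2, a member of the set, so acta2 itself checks the sort and is no independent result there. A positive cell is any cell in which the reporter promoter is active, and the label for tissue names vascular smooth muscle in all 17 libraries, negative ones included.

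Smooth muscle cells contract when myosin filaments pull on actin filaments. Calcium and calmodulin activate myosin light chain kinase, which phosphorylates the regulatory light chain and so switches the myosin head on, while calponin, transgelin and smoothelin bind actin. In the wall of a vessel this machinery sets tone, and in mammals acta2, tagln, cnn1 and myh11 are standard markers of differentiated smooth muscle.

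Values are normalized read counts, which are reads divided by a scaling factor for each library. They are not divided by transcript length, so levels are compared between groups for a gene and not between genes. Libraries held 10474235 to 40868765 reads. The 11 libraries of the acta2 and acta2/foxc1b lines were scaled together and the 6 kdrl libraries apart, and the kdrl line also differed in fixation, library kit and age, so its levels are read only within that line. In each line, log2(normalized count + 1) of positive cells was compared with that of negative cells by limma, and a gene was called at a Benjamini-Hochberg adjusted p under 0.05 over all tested genes. Fold changes on that scale understate the change of genes with low counts. The labels do not tie replicates to separate clutches or sorting days, so p-values measure the spread between these libraries, which may be technical. Since these are bulk libraries, fewer cells of a type and less RNA per cell cannot be told apart. Alpha-actin genes are nearly alike in coding sequence, and how reads that match several genes were counted is not given in the sources used here, so the split of reads between acta2 and its paralogues is uncertain.

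In the acta2 line, 8 of the 9 tested members were higher in positive cells: acta2, tagln, cnn1b, smtna, lmod1b, myh11a, myl9a and mylka, by log2 fold changes of 2.84 to 7.46. Of all genes tested in this line, 3.26% were called higher. The median log2 fold change over the 9 tested members was 5.30, beside -0.06 over all 20582 tested genes. The smoothelin gene smtnb was not called, and cnn1a was too low to be tested. Of the tested members, smtna passed the filter on low values (a normalized count of at least 10 in 3 libraries) through the positive libraries only.

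In the acta2/foxc1b line the same 8 members had larger positive than negative values in all libraries, with log2 fold changes of 5.05 to 9.02, but only acta2, tagln and cnn1b passed the test. The background was low, with 0.0271% of 22116 genes called higher, which is 6 genes, 3 of them members. The members' median log2 fold change was 6.65, beside -0.11 over all tested genes. All 8 had an unadjusted limma p under 0.05, as had 2532 of the 22116 tested genes. With DESeq2 on recovered reads 8 members were called beside 2.91% of genes, and with edgeR 0 members beside 0.0% of genes. A limma fit of both acta2 lines together, added after seeing the data, called 8 members in this line beside 2.33% of genes. Leaving out negative replicate 2 gave 8 members beside 1.55% of genes. Quantile normalization gave 5 beside 0.244% of genes. Leaving out negative replicate 1, or either positive library, gave 0 members and also 0.0% of genes higher in each case. Averaged over both lines in a fit of 11 libraries, 8 of 9 members were called, beside 4.68% of 23438 genes.

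**Figure D1:**
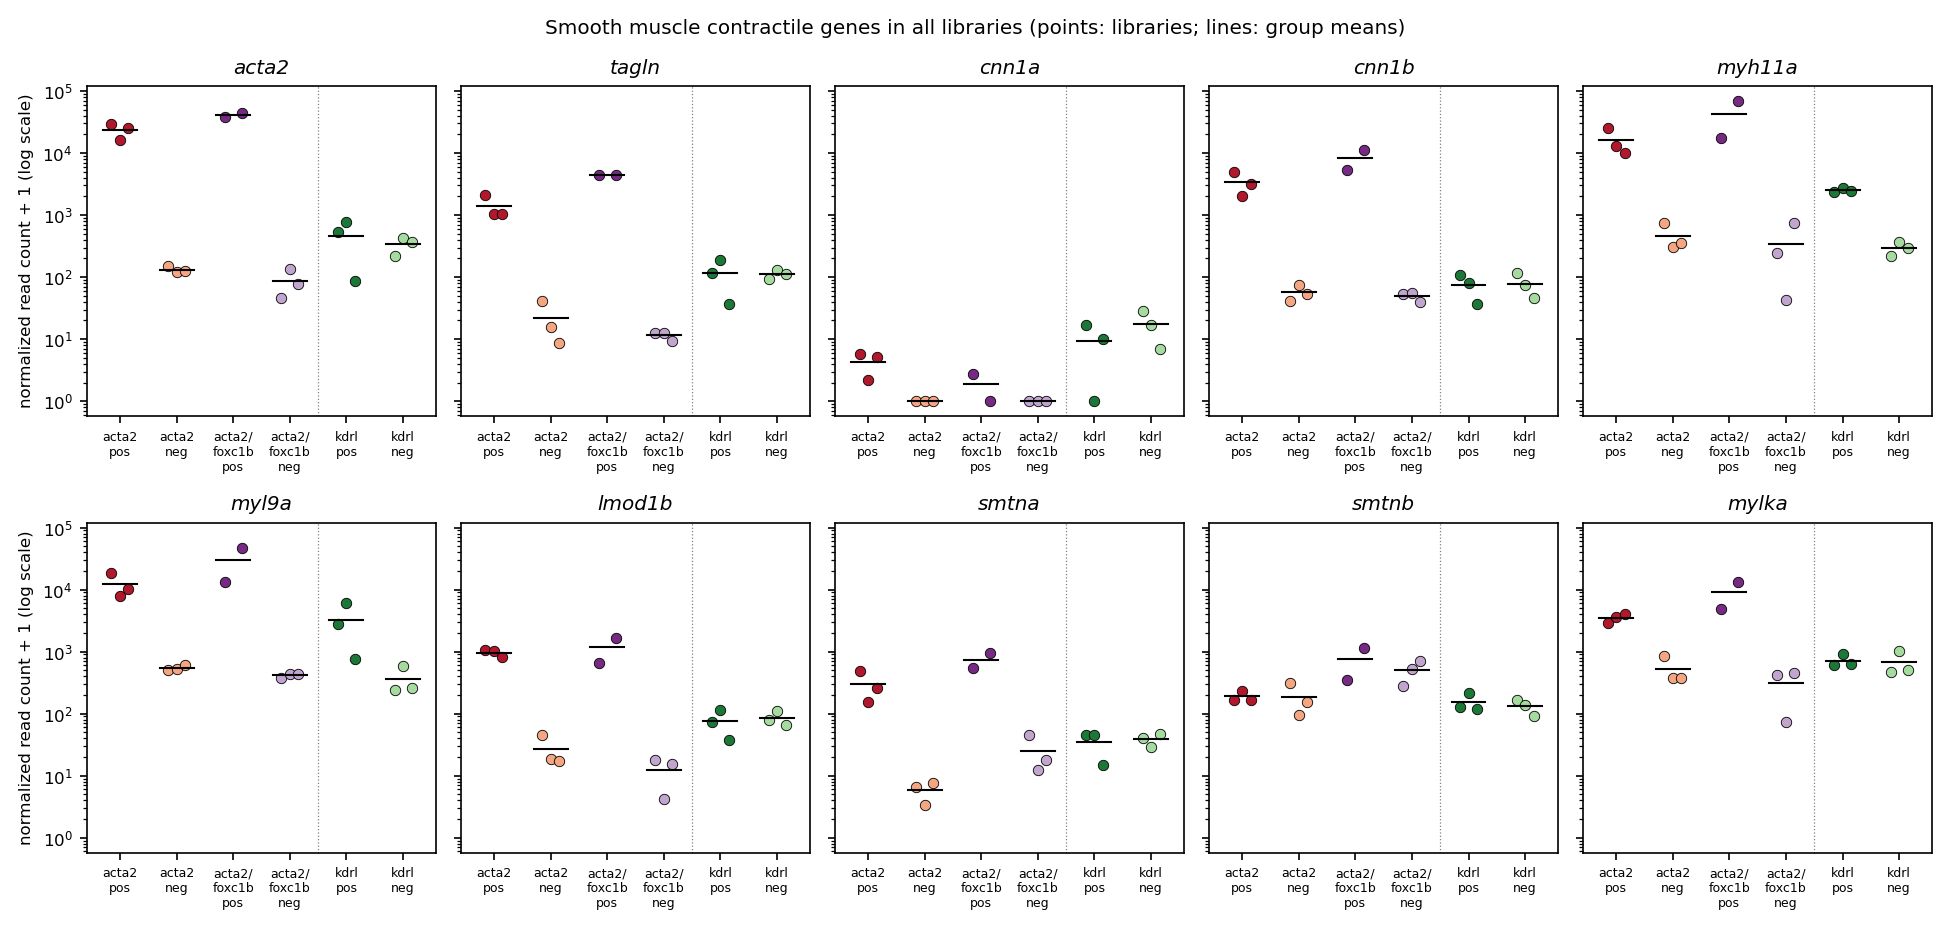
Normalized read count + 1 of each of the 10 genes on a log axis, with points for the 17 libraries and lines for group means; the dotted line separates the kdrl libraries, which were scaled apart. In both acta2 lines the positive libraries of 8 genes lie above the negative ones, smtnb overlaps, and cnn1a stays under 5 normalized counts.

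Several libraries stood apart from their group, and markers of other cells moved with the sorts. The summed normalized count of 10 epidermis markers was 2784060 in acta2/foxc1b negative replicate 2, against 10564 and 20734 in the other negative libraries of that line. Its reads correlated with those of negative replicate 1 at r = 0.834 across genes, which are not independent replicates. Summed over 17 skeletal muscle markers, acta2/foxc1b libraries held 235304 and 457000.3 in positive cells, against 15578 to 38860 in negative cells. The same markers summed in the acta2 line to 18576 to 38709 in positive and 27129 to 45045 in negative libraries, so the groups overlapped there. The 13 cardiac muscle markers summed to 15622 to 29896 in positive and 6157 to 10825 in negative libraries of the acta2 line, and to 20362 and 59562 against 2197 to 3481 in the acta2/foxc1b line. A large part of these sums came from hand2 alone. It held 9020 to 23319 in positive and 2393 to 4473 in negative libraries of the acta2 line. In the acta2/foxc1b line hand2 held 6540 and 31620 against 215 to 1289. The cardiac myosin light chain gene myl7 had only 88.3 to 198 in acta2 positive libraries. No marker of these lists was at 0 in a whole group. Mitochondrial ribosomal RNA from mt-rnr2 accounted for 9.35 to 16.3% of reads in acta2 positive and 1.23 to 3.86% in acta2 negative libraries, but for 3.44 to 6.02% in positive and 4.52 to 7.10% in negative libraries of the acta2/foxc1b line, where the groups overlapped. The heat shock cognate gene hspa8 took 1.93 to 3.10% of reads in acta2 positive and 3.797 to 7.98% in acta2 negative libraries. It took 9.50% in acta2/foxc1b negative replicate 2, against 1.41 and 2.74% in the other negative libraries of that line, and 1.63 and 2.98% in its positive libraries. The part of these differences in the members' results was not tested.

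Among the genes of the actin filament, acta2 encodes the smooth muscle actin itself. In the acta2 line it had 29672, 16196 and 25679 normalized counts in positive libraries, against 147, 121 and 122 in negative libraries. Acta2/foxc1b positive libraries had 37792 and 44413, against 45.7, 137 and 75.7 in negative libraries. The lowest positive library was 109.9 times the highest negative library in the acta2 line and 277 times in the acta2/foxc1b line. Since the acta2 promoter drives a reporter in both lines, this checks the sort by acta2. It cannot show whether the positive cells were mural. The log2 fold changes of acta2 were 7.46 (SE 0.31, limma adjusted p = 2.81e-05) and 9.02 (SE 0.63, limma adjusted p = 0.0272). For acta2, tagln and cnn1b of the acta2/foxc1b line the limma adjusted p was 0.989 without positive replicate 2, which leaves a single positive library.

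The transgelin gene tagln, whose product crosslinks actin, gave 2144, 1045 and 1050.1 normalized counts in acta2 positive libraries, against 40.9, 14.8 and 7.60 in negative libraries. Positive replicate 1 was the highest by a factor of about 2.05 over the lowest. For the acta2/foxc1b line tagln had 4372 and 4464 normalized counts in positive libraries, against 11.6, 11.4 and 8.41 in negative libraries. These positive libraries differed by a factor of only 1.02, and the negative ones carried 7 to 15 reads each, close to the depth limit. The log2 fold change was 6.22 (SE 0.61, limma adjusted p = 0.0033) in the acta2 line and 8.60 (SE 0.66, limma adjusted p = 0.0272) in the acta2/foxc1b line.

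Calponin 1, an actin-binding protein that inhibits the myosin ATPase, has the duplicate genes cnn1a and cnn1b in zebrafish, and nearly all calponin 1 reads of mural cells came from cnn1b. It had 4896, 1993 and 3209 normalized counts in acta2 positive libraries, against 40.9, 74.6 and 52.3 in negative libraries. Acta2/foxc1b positive libraries had 5248 and 11121, against 53.4, 53.7 and 39.5 in negative libraries. The groups did not overlap in either line, and the log2 fold changes were 5.83 (SE 0.41, limma adjusted p = 0.000695) and 7.27 (SE 0.61, limma adjusted p = 0.0323).

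The copy cnn1a was barely detected. Acta2 positive libraries had 3, 1 and 4 reads of it, which are 4.69, 1.16 and 4.20 normalized counts, against 0 reads in the 3 negative libraries, where a count of 0 allows up to 2.73, 2.33 and 2.53 normalized counts (3 reads in a library, counting error only). Positive libraries of the acta2/foxc1b line had 2 and 0 reads, and the 3 negative libraries 0 reads. With so few reads no fold is given, and cnn1a was tested in neither line. Its share of the reads of both copies was 0.0949% ± 0.0362 in acta2 positive libraries and 0% in acta2 negative libraries (SD, n = 3 each; exact two-sided permutation p = 0.1, the smallest that 3 against 3 libraries allow). These negative libraries held only 45, 96 and 62 reads of both copies, too few for so small a share to show. The test therefore cannot tell whether the share differed. Among kdrl libraries the share was 11.1% ± 10.2 in positive and 16.3% ± 4.03 in negative libraries (SD, n = 3 each; exact permutation p = 0.7), from 0 to 36 cnn1a reads per library. Shares are of reads, with no correction for length.

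Leiomodin 1, encoded by lmod1b, nucleates actin filaments. It had 1049, 1029.6 and 809 normalized counts in acta2 positive libraries, against 43.7, 17.9 and 16.0 in negative libraries, and the positive libraries were the closest together of the 8 called genes, with the highest 1.297 times the lowest. Its acta2/foxc1b counts were 665 and 1685 in positive libraries, against 17.02, 3.25 and 14.2 in negative libraries, the lowest of which carried 2 reads. The log2 fold change was 5.30 (SE 0.47, limma adjusted p = 0.00191) in the acta2 line. It was 6.65 (SE 0.98) in the acta2/foxc1b line and missed the threshold there (limma adjusted p = 0.08), although the groups did not overlap.

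Smoothelin, a cytoskeletal protein that in mammals marks contractile smooth muscle, likewise has duplicate genes, and only smtna was called between sorted fractions. Positive libraries of the acta2 line had 491, 152 and 259 normalized counts of smtna, against 5.46, 2.33 and 6.75 in negative libraries. For the acta2/foxc1b line smtna had 542 and 935 in positive libraries, against 44.1, 11.4 and 16.8 in negative libraries. No positive library came near a negative one, and the log2 fold changes were 5.61 (SE 0.66, limma adjusted p = 0.00474) in the acta2 line and 5.05 (SE 0.86, limma adjusted p = 0.101) in the acta2/foxc1b line. The negative libraries of the acta2 line held 3 to 8 smtna reads.

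The other copy, smtnb, had 164, 234 and 167 normalized counts in acta2 positive libraries, against 308, 93.3 and 154 in negative libraries. Counts of smtnb in the acta2/foxc1b line were 352 and 1152 in positive libraries, against 281, 522 and 713 in negative libraries. Negative libraries lay both above and below positive ones in each line. For smtnb the log2 fold change was 0.18 with a 95% interval of -0.93 to 1.29 in the acta2 line (limma adjusted p = 0.863) and 0.43 with an interval of -1.31 to 2.17 in the acta2/foxc1b line (limma adjusted p = 0.884). These intervals lie below the fold changes of smtna.

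Within smoothelin reads the share of smtna separated the fractions. It was 74.9, 39.5 and 60.8% in acta2 positive libraries, against 1.74, 2.44 and 4.21% in negative libraries. For the acta2/foxc1b line it was 60.6 and 44.8% in positive libraries, against 13.6, 2.13 and 2.31% in negative libraries. Group means were 58.4% ± 17.9 in positive and 2.80% ± 1.27 in negative libraries of the acta2 line (SD, n = 3 each; exact two-sided permutation p = 0.1, the smallest possible). For the acta2/foxc1b line they were 52.7% ± 11.2 (SD, n = 2) in positive and 6.0% ± 6.55 (SD, n = 3) in negative libraries, with an exact permutation p = 0.2, again the smallest possible. Among kdrl libraries the share was 17.9% ± 8.01 in positive and 23.4% ± 9.24 in negative libraries (SD, n = 3 each; exact permutation p = 0.5), and the groups overlapped.

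**Figure D2:**
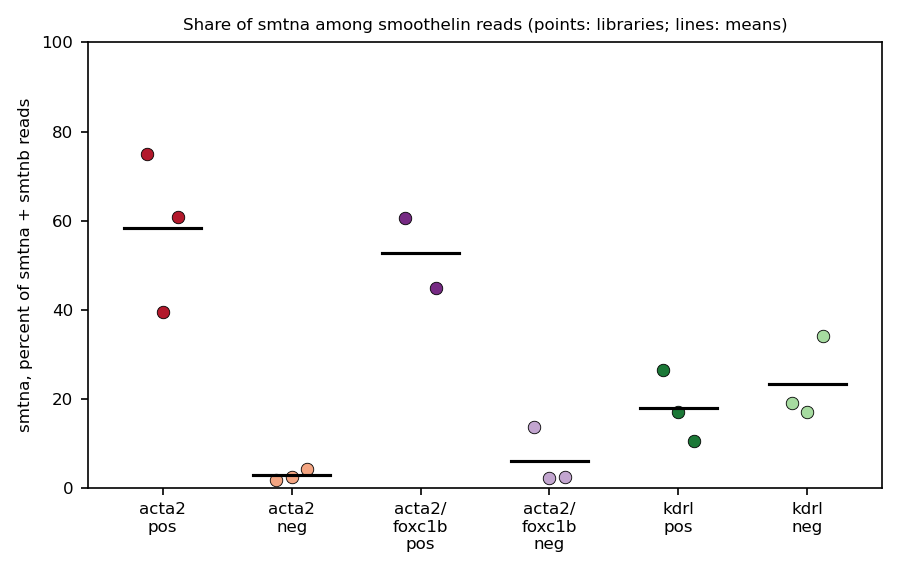
Reads of smtna as a percent of smtna plus smtnb reads, by group, with points for libraries and lines for means. The acta2 positive libraries lie at 39.5 to 74.9%, the acta2/foxc1b positive libraries at 44.8 and 60.6%, their negative libraries at 1.74 to 13.6%, and the kdrl groups overlap.

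On the myosin side, myh11a encodes the smooth muscle myosin heavy chain. It had 25603, 12752 and 10100.1 normalized counts in acta2 positive libraries, against 737, 302 and 356 in negative libraries. For the acta2/foxc1b line myh11a had 17169 and 68995 in positive libraries, against 246, 42.3 and 739 in negative libraries. Fractions were separate in both lines, yet the spread inside the acta2/foxc1b groups was wide, with a factor of 4.02 between positive and 17.5 between negative libraries. The log2 fold change was 5.11 (SE 0.45, limma adjusted p = 0.00184) in the acta2 line and 7.43 (SE 1.22, limma adjusted p = 0.0924) in the acta2/foxc1b line.

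The regulatory light chain gene myl9a, whose product is the substrate of the kinase, had 18249, 8011 and 10396 normalized counts in acta2 positive libraries, against 511, 531 and 610 in negative libraries. With the acta2/foxc1b reporters it had 13381 and 46063 in positive libraries, against 377, 428 and 437 in negative libraries. Negative libraries agreed closely in both lines, within a factor of 1.19 and 1.16, whereas positive ones differed by up to 2.28 and 3.44. Its log2 fold change was 4.39 (SE 0.34, limma adjusted p = 0.00128) in the acta2 line and 5.91 (SE 0.66, limma adjusted p = 0.0663) in the acta2/foxc1b line.

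The myosin light chain kinase gene mylka had 2901, 3614 and 4094 normalized counts in acta2 positive libraries, against 844, 372 and 371 in negative libraries. In cells of the acta2/foxc1b line it had 4827 and 13325 in positive libraries, against 417, 71.6 and 447 in negative libraries. Of the called members it had the smallest log2 fold change in the acta2 line, 2.84 (SE 0.37, limma adjusted p = 0.00597). In a fit of the acta2 and acta2/foxc1b lines together, added after seeing the data, its acta2 effect missed the threshold (limma adjusted p = 0.0644, the highest of a range that began at 1.15e-07), which left 7 members called beside 0.397% of genes. The acta2/foxc1b effect was 5.07 (SE 0.95, limma adjusted p = 0.119).

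**Figure D3:**
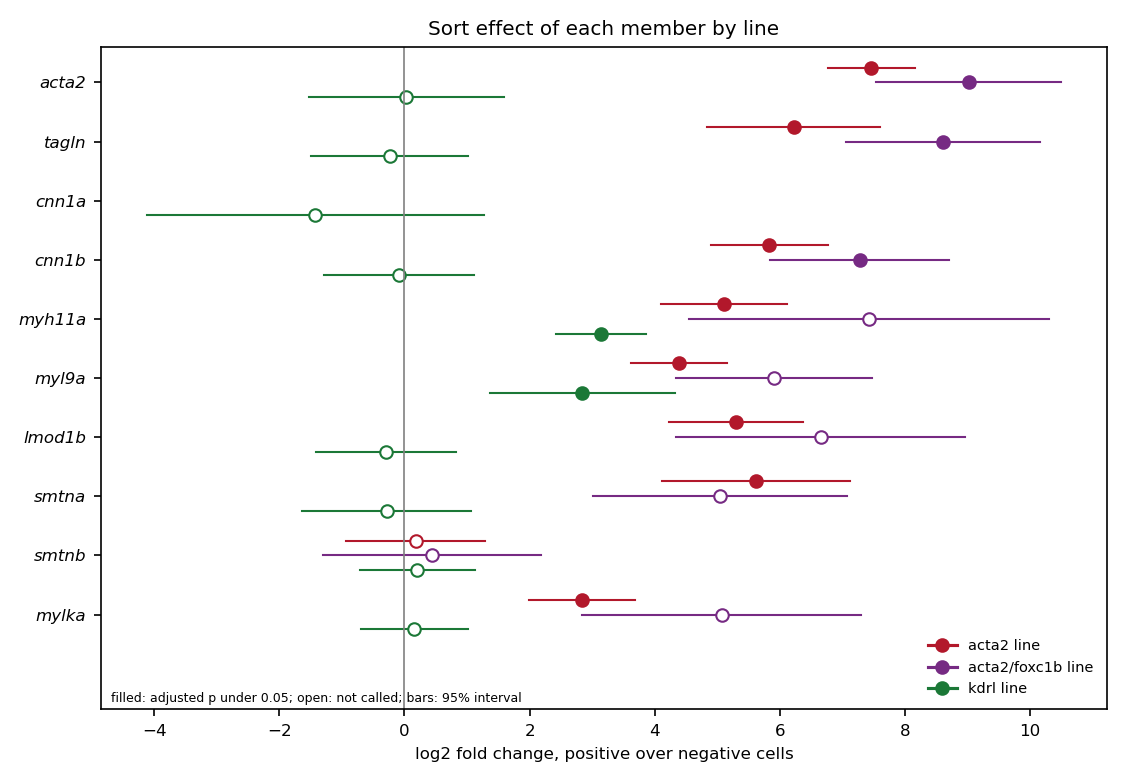
Log2 fold change of positive over negative cells for each gene in the 3 lines, with 95% intervals; filled points were called at an adjusted p under 0.05 and cnn1a was tested in the kdrl line alone. Both acta2 lines lie far above 0 for 8 genes, smtnb lies near 0, and in the kdrl line myh11a (3.13) and myl9a (2.84) are called.

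The authors' deposited table called 8 of 9 members higher in the acta2 line, beside 2.43% of genes, and 8 of 9 in the acta2/foxc1b line, beside 5.17% of genes. In the authors' deposited table the log2 fold change of acta2 was 6.41 and 8.10 in these lines, and that of myh11a was 3.26 and 5.43. For smtnb in the acta2 line, the authors' deposited table gives -0.17 with an adjusted p of 0.989. Its deposited test statistic has the opposite sign, 0.04. The deposited fold changes are thus another measure than those given here, and their sizes are not directly comparable.

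Libraries of some groups, positive and negative, tended to rank alike for several members. Leaving out cnn1a, acta2 positive replicate 1 was the highest positive library of its line for 7 of 9 members, beside 39.4% of tested genes, and replicate 2 the lowest for 5, beside 26.6% of genes. Among negative libraries, acta2 replicate 1 was the highest of its group for 6 of 9 members, and so was kdrl replicate 2. The share over all genes was not computed for these. Negative libraries of the acta2/foxc1b line showed no such order, being highest for 3, 2 and 4 members. In the acta2/foxc1b line positive replicate 2 exceeded replicate 1 for 9 of 9 members, beside 48.7% of genes, by factors of 1.02 (tagln) and 1.18 (acta2) up to 4.02 (myh11a). The members' median factor was 2.53, beside 0.975 over 22116 genes, and 3 members, against 12.19% of genes, reached a factor of 3. The same library also had the higher sums of skeletal, cardiac, pericyte, endothelial and epidermis markers of the pair. Its fibroblast and tendon sum was lower, 186691 against 837158 in replicate 1, and so was its leukocyte sum, 80.0 against 204.9. The part of these differences in the members' values was not tested.

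Positive cells of the acta2/foxc1b line had higher group means than acta2 positive cells for 9 of the 9 tested members, beside 50.8% of genes, but no difference passed the test. Without acta2/foxc1b positive replicate 2, which leaves 1 library, this held for 8 of 9 members and 46.3% of genes. The foxc1b transcript averaged 1361 ± 872 (SD, n = 2) in acta2/foxc1b positive and 299 ± 104 (SD, n = 3) in acta2/foxc1b negative libraries. It averaged 1266 ± 815 in acta2 positive and 3421 ± 1822 in acta2 negative libraries (SD, n = 3 each). The genes acta2, tagln, cnn1b, myh11a, myl9a, lmod1b and mylka shared 1 order of group means: acta2/foxc1b positive, acta2 positive, acta2 negative, acta2/foxc1b negative. How many of all genes had this order was not computed. For lmod1b it rested on acta2/foxc1b positive replicate 2, since replicate 1 held 665, below the acta2 positive mean of 963. For smtna the order of the negative groups was turned, with means of 738 ± 278 (SD, n = 2) in acta2/foxc1b positive, 301 ± 173 (SD, n = 3) in acta2 positive, 24.1 ± 17.5 (SD, n = 3) in acta2/foxc1b negative and 4.85 ± 2.27 (SD, n = 3) in acta2 negative libraries. For smtnb both acta2/foxc1b means were above both acta2 means. They were 752 ± 565 (SD, n = 2) in acta2/foxc1b positive, 505 ± 217 (SD, n = 3) in acta2/foxc1b negative, 188 ± 39.3 (SD, n = 3) in acta2 positive and 185 ± 110 (SD, n = 3) in acta2 negative libraries. The negative groups overlapped between the lines. Neither line difference of smtnb was called (limma adjusted p = 0.523 between positive and 0.595 between negative groups).

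Between the positive groups, acta2/foxc1b minus acta2, log2 differences ran from 0.15 (lmod1b) to 1.77 (smtnb). None of 9 was called by limma, beside 0.196% of genes in either direction. By unadjusted limma p under 0.05 there were 3, smtnb, tagln and cnn1b, beside 1835 of 23438 genes in either direction. With edgeR and with DESeq2 0 members were called, beside 0.175% and 1.37% of genes higher. The interval for myh11a was -0.92 to 3.33 and that for acta2 -0.22 to 1.88, so differences of several-fold could not be told from none. All of these differences were lower without acta2/foxc1b positive replicate 2, which follows from its being the higher library of the pair for each member. The log2 difference was then -0.52 for lmod1b, 0.21 for myh11a, 0.22 for myl9a, 0.46 for mylka and 0.74 for cnn1b. It was 0.92 for smtnb and 1.01 for smtna, and it moved least for tagln, to 1.72, and acta2, to 0.71. Between the negative groups the log2 differences ran from -1.21 (lmod1b) to 1.97 (smtna), with 0 called by limma, edgeR and DESeq2. Among all genes 0.0% were called by limma in either direction, 0.0% were higher by edgeR and 0.811% by DESeq2. An unadjusted limma p under 0.05 was found for 2 members, smtna and smtnb, beside 1790 of 23438 genes in either direction. The sort effects themselves, acta2/foxc1b minus acta2, differed by a median log2 of 1.52 over the members, from -0.56 (smtna) to 2.38 (tagln). Again 0 members were called by limma, edgeR or DESeq2. An unadjusted limma p under 0.05 was reached by 3 (acta2, tagln and mylka), beside 1169 of 23438 genes in either direction. Of all genes 0.0% were called by limma and 0.0% and 0.593% were higher by edgeR and DESeq2.

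Positive cells of the kdrl line had more RNA of the myosin genes myh11a and myl9a than negative cells, and no other member was called. These 2 of 10 members stand beside 3.17% of 24903 genes called higher. With the replicate number as a block the same 2 were called, beside 7.08% of genes. The kdrl transcript averaged 11758 ± 7048 normalized counts in positive and 272 ± 36.6 in negative libraries (SD, n = 3 each). Since the kdrl promoter drives the reporter, this checks the sort and is no independent result. Of the endothelial markers, kdrl among them, 12 of 12 were called higher. They summed to 29744 to 95550 in positive and 2105 to 2352 in negative libraries. The positive fraction also held other cells' markers. Of the leukocyte markers 6 of 8 were called higher, summing to 14128 to 44586 in positive and 924 to 3439 in negative libraries. Of the epidermis markers 4 of 10 were called higher. Their sums were 53099 to 439077 in positive and 18015 to 58863 in negative libraries, and the groups overlapped. In contrast, the 9 pericyte markers summed to 1789 to 4884 in positive and 4296 to 9008 in negative libraries, and 0 were called higher. What part these cells had in the members' values was not tested.

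Heavy chain gene myh11a had 2394, 2766 and 2429.8 normalized counts in kdrl positive libraries, against 218, 365 and 295 in negative libraries. The positive libraries lay within a factor of 1.16 of each other, well clear of the negative ones. The log2 fold change was 3.13 (SE 0.32, limma adjusted p = 0.000833), 8.78-fold, and it was called in all 14 settings tried, with adjusted p of up to 0.00584.

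Light chain gene myl9a had 2810.4, 6114 and 772 normalized counts in kdrl positive libraries, against 235, 586 and 258 in negative libraries. Positive replicate 3 lay only 1.32 times above the highest negative library, so the groups stood apart by little. The difference in log2 was 2.84 (SE 0.67, limma adjusted p = 0.0354), 7.18-fold. With the replicate block the limma adjusted p was 0.00437. The call was lost with quantile normalization (limma adjusted p = 0.0541), where 3.19% of genes were higher. Leaving out a library also ended it in 4 of 6 cases, with limma adjusted p of 0.137 for negative replicate 1, 0.0804 for negative replicate 3, 0.0848 for positive replicate 1 and 0.0772 for positive replicate 2. Over 14 settings, edgeR and DESeq2 included, the adjusted p ran from 3.05e-05 to 0.137.

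Neither acta2 nor tagln was called in the kdrl line, though members were not tested against each other. Actin gene acta2 had 532, 771 and 86.3 normalized counts in kdrl positive libraries, against 218, 426 and 362 in negative libraries, and the fractions overlapped. Its log2 fold change was 0.03 with a 95% interval of -1.53 to 1.58 (limma adjusted p = 0.984). Transgelin gene tagln had 116, 188 and 36.3 in positive libraries, against 93.0, 127 and 112 in negative libraries, a log2 fold change of -0.24 (interval -1.50 to 1.02, limma adjusted p = 0.819). Both values moved with single libraries. Without positive replicate 3 they were 0.99 for acta2 and 0.43 for tagln, and without positive replicate 2 they were -0.58 and -0.74, none of them called by limma. Across the 9 members other than cnn1a, positive replicate 3 was the lowest positive library for 7, and positive replicate 2 the highest for 7. How many of all genes ranked so was not computed. Positive replicate 3 had the fewest reads of the positive libraries, 11601057, and the part of depth in its values was not tested.

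The remaining members had kdrl log2 fold changes of 0.21 (smtnb), 0.16 (mylka), -0.09 (cnn1b), -0.29 (smtna), -0.30 (lmod1b) and -1.42 (cnn1a), with limma adjusted p of 0.498 to 0.931. For mylka the counts were 597, 905 and 631 in positive libraries, against 470, 1024 and 512 in negative libraries, which overlapped. Calponin copy cnn1a had 33, 0 and 4 reads in positive libraries, against 36, 9 and 7 reads in negative libraries, so its fitted value depends on the pseudocount of 1. Over all 10 members the median log2 fold change was -0.03, beside -0.05 over all tested genes. Of 9 members with an adjusted p in the authors' deposited table, 2 were called higher in this line, beside 6.66% of genes, with log2 fold changes of 3.03 for myh11a and 2.92 for myl9a.

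Positive libraries lay wholly above negative libraries for 8 of the 9 tested members in the acta2 line, where 15.1% of tested genes did so, and for 8 of 9 in the acta2/foxc1b line, where 14.8% did. Both counts include acta2, whose promoter drives a reporter in both lines, so its separation is no independent result. The acta2 line count also includes smtna, which passed the filter on low values through the positive libraries only. In the kdrl line this held for 2 of 10, myh11a and myl9a, beside 15.3% of genes.

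Sort effects of the mural and endothelial lines were compared directly as differences of log2 fold changes, each being positive minus negative within its own line. Both differences use the same 6 kdrl libraries and so are not independent. Line, age, fixation and kit changed together and cannot be told apart in them. The acta2 effect exceeded the kdrl effect for 6 of 10 members, beside 2.8% of 25490 genes: acta2 by 7.44 (SE 0.84, limma adjusted p = 0.000175), tagln by 6.46 (0.000687), cnn1b by 5.92 (0.000283), smtna by 5.90 (0.00184), lmod1b by 5.60 (0.000436) and mylka by 2.68 (0.00937).

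Of the members called in the kdrl line, neither differed from the acta2 line by the main fit, which did not use the replicate block. For myh11a the difference, acta2 minus kdrl, was 1.98 with an interval of 0.78 to 3.17 and just missed the threshold (limma adjusted p = 0.0503, range over 20 settings 0.0105 to 0.132). The replicate number as a block gave 0.0105 for it, which changes the call. For myl9a it was 1.54 with an interval of -0.21 to 3.30 (limma adjusted p = 0.297), for cnn1a 3.42 (0.17) and for smtnb -0.03 (0.987).

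The acta2/foxc1b effect also exceeded the kdrl effect for 6 of 10 members, beside 1.4% of 26367 genes. The differences were 8.99 for acta2 (SE 1.07, limma adjusted p = 0.00188), 8.84 for tagln (0.000882), 7.36 for cnn1b (0.00155), 6.95 for lmod1b (0.00648), 5.34 for smtna (0.021) and 4.91 for mylka (0.025). For myh11a it was 4.30 (0.0976) and for myl9a 3.06 (0.165), cnn1a 2.16 (0.531) and smtnb 0.23 (0.922). Without acta2/foxc1b positive replicate 2 the count was 3, acta2, tagln and cnn1b. With the replicate block it was 4, since smtna (0.0883) and mylka (0.0698) were lost. Leaving out any 1 kdrl library also lost mylka (limma adjusted p of 0.0505 to 0.0812). Leaving out any 1 kdrl negative library lost smtna (limma adjusted p of 0.0555 to 0.0611).

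**Figure D4:**
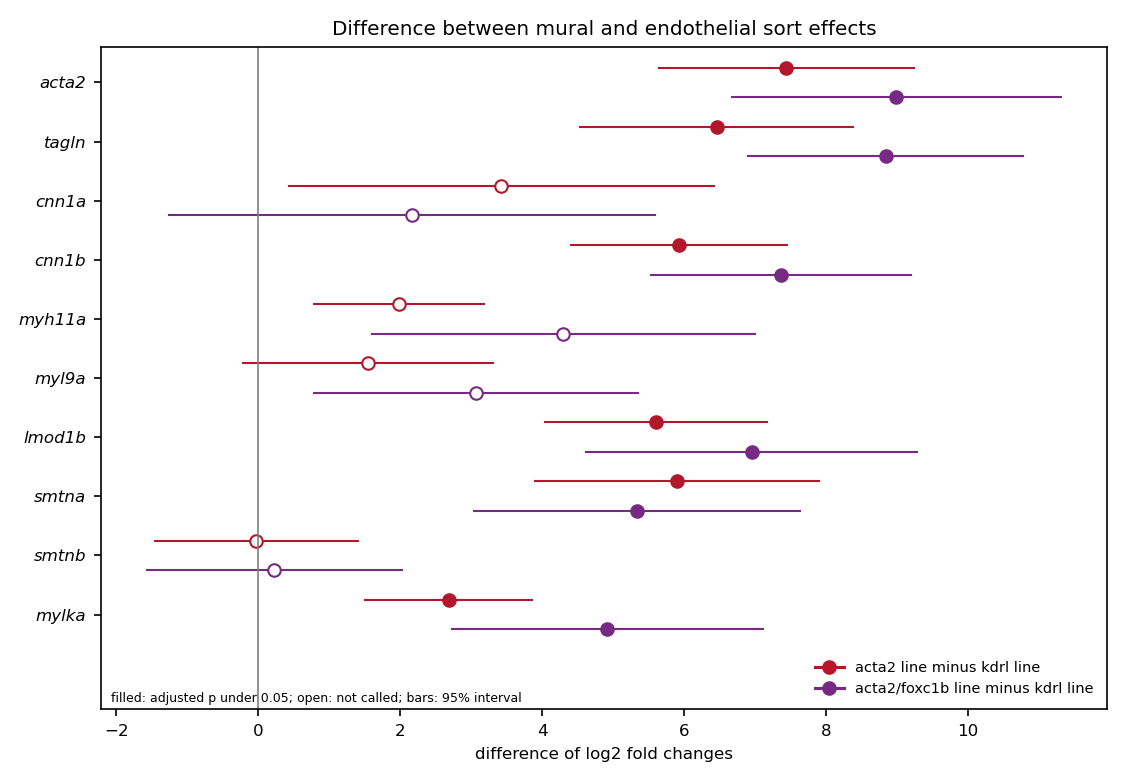
Difference of log2 fold changes, acta2 line minus kdrl line and acta2/foxc1b line minus kdrl line, for the 10 genes with 95% intervals; filled points were called. The genes acta2, tagln, cnn1b, lmod1b and smtna lie at 5.34 and above and mylka at 2.68 and 4.91, all called. The genes myh11a (1.98 and 4.30), myl9a (1.54 and 3.06), cnn1a and smtnb are not called.

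Other genes of the contractile apparatus were described as lists in the fit of both acta2 lines averaged, in which 4.68% of genes were called higher and 4.62% lower, with a median log2 fold change of -0.11 over all genes. The kdrl fit, set beside it for each list, called 789 of all 24903 tested genes higher and 696 lower. It holds fewer libraries than the averaged fit, so counts of these fits set side by side are no test of a difference. Among 31 tested paralogues of the members, 13 were higher and 1 lower, with a median of 1.196. They included myl6, an essential myosin light chain gene, at 3.91 (limma adjusted p = 7.49e-05), mylkb, the second myosin light chain kinase gene, at 4.90 (0.000224), cnn3a, a calponin 3 gene, at 2.55 (0.000935), and acta1a, the skeletal muscle actin gene, at 3.23 (0.000573). In the acta2 line alone acta1a had 1.02 (limma adjusted p = 0.177). The kdrl fit called 3 of 32 paralogues higher and 1 lower.

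Among 44 other genes of the thin filament, dense plaque and cytoskeleton, 31 were higher and 0 lower, with a median of 1.99. The tropomyosin genes tpm1 and tpm4b had 3.34 and 4.89 and the intermediate filament gene desmb, a desmin, 5.57 (limma adjusted p = 7.49e-05 for each). The LIM-domain gene fhl2a had 5.42 (0.000108). The kdrl fit called 3 of these higher and 3 lower, and tpm4b had -1.38 there (limma adjusted p = 0.0796).

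Among 36 genes that regulate myosin light chain phosphorylation, 12 were higher and 1 lower, with a median of 0.87. The cyclic GMP pathway, in which that messenger lowers contraction, was represented by gucy1a3 at 5.27 (limma adjusted p = 0.000848) and gucy1b3 at 3.28 (0.00123), subunits of the nitric oxide receptor guanylate cyclase, by the kinase gene prkg1b at 3.88 (0.000491) and by pde5ab, a phosphodiesterase gene whose product degrades cyclic GMP, at 2.94 (0.000577). Of the same genes 3 were higher in the kdrl line and 1, pde5ab at -2.03 (limma adjusted p = 0.0366), was lower.

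Among 40 transcriptional regulators of smooth muscle genes, 15 were higher and 0 lower, with a median of 0.98. They included tcf21, a transcription factor gene of epicardial and mesenchymal cells, at 2.82 (limma adjusted p = 0.000224), the Notch ligand gene jag1b at 2.53 (0.00101), and the forkhead genes foxf1 at 2.92 (0.00123) and foxf2a at 2.32 (0.00186). With the acta2 line alone foxf1 had 0.93 (0.246) and foxf2a 0.66 (0.393), both short of the limma threshold. Kdrl positive cells had 5 regulators higher and 3 lower, among them foxf1 at -2.76 (limma adjusted p = 0.00664). By the limma test of the difference itself, acta2 minus kdrl sort effect, fewer genes of these lists were called. Of the paralogues 3 of 32 were higher and 2 lower. Higher were 12 of 44 filament and plaque genes, 4 of 36 phosphorylation genes and 6 of 40 regulators, with 0 lower. The median differences of these lists were 0.73, 1.11, -0.24 and 0.21. Of all 25490 genes 714 were higher and 844 lower.

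Of the cell type marker lists, 7 of 8 tested pericyte markers were higher and 0 lower in the averaged fit, with rasl12 at 5.37, notch3 at 2.33, abcc9 at 2.98 and rgs5a at 2.19. Cardiac markers had 9 of 13 higher and 0 lower, including tbx20 at 3.83, hand2 at 3.24, myl7 at 3.44 and tnnt2a at 3.196. Skeletal markers had 8 of 17 higher and 1 lower, the myogenic regulator myog at -3.15. Fitted alone, the acta2 line had 0 of 17 skeletal markers higher and 2 lower by limma, while 5 of 13 cardiac markers were higher.

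Of the others, fibroblast and tendon markers had 2 of 10 higher and 0 lower, pdgfra at 2.08 and tnmd at 1.78. Summed, these 10 markers held 1063741 to 1231679 in positive and 448314 to 470753 in negative libraries of the acta2 line, without overlap. In the acta2/foxc1b line they held 186691 and 837158 against 154756.5 to 194901, and the groups overlapped. What part this RNA had in the members' values was not tested. Endothelial markers had 0 of 12 called by limma, epidermis markers 0 higher and 1 lower of 10 (epcam at -3.03), and leukocyte markers 0 higher and 3 lower of 8 (lcp1 at -3.69, coro1a at -3.14 and ptprc at -2.45). In the kdrl line 1 of 9 pericyte, 4 of 17 skeletal, 2 of 13 cardiac and 7 of 10 fibroblast and tendon markers were lower, and 0 of each were higher. Of all 24903 genes tested there, 696 were lower and 789 higher. In the direct difference, acta2 minus kdrl sort effect, 4 of 9 pericyte, 0 of 17 skeletal, 4 of 13 cardiac and 6 of 10 fibroblast and tendon markers were higher. None of these markers was lower.

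Counts of these lists for each line fitted alone were smaller by limma. In the acta2 line 6 of 30 paralogues, 8 of 35 phosphorylation genes, 7 of 40 regulators and 3 of 8 pericyte markers were higher by limma with 0 lower, and of 44 filament and plaque genes 21 were higher and 1 lower. In the acta2/foxc1b line limma and edgeR called 0 genes of any list. By DESeq2, 15 of 31 paralogues, 29 of 44 filament and plaque genes, 5 of 36 phosphorylation genes, 10 of 40 regulators and 6 of 8 pericyte markers were higher there. By DESeq2, 11 of 17 skeletal and 8 of 13 cardiac markers were higher there too, beside 2.91% of all genes. At an unadjusted limma p under 0.05 the higher genes of that line were 16 paralogues, 34 filament and plaque genes, 9 phosphorylation genes, 17 regulators, 7 pericyte, 13 skeletal and 9 cardiac markers. Of all 22116 genes tested in that line, 2532 reached such a p in either direction. What part the RNA of the skeletal and cardiac marker lists had in these counts was not tested.

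**Figure D5:**
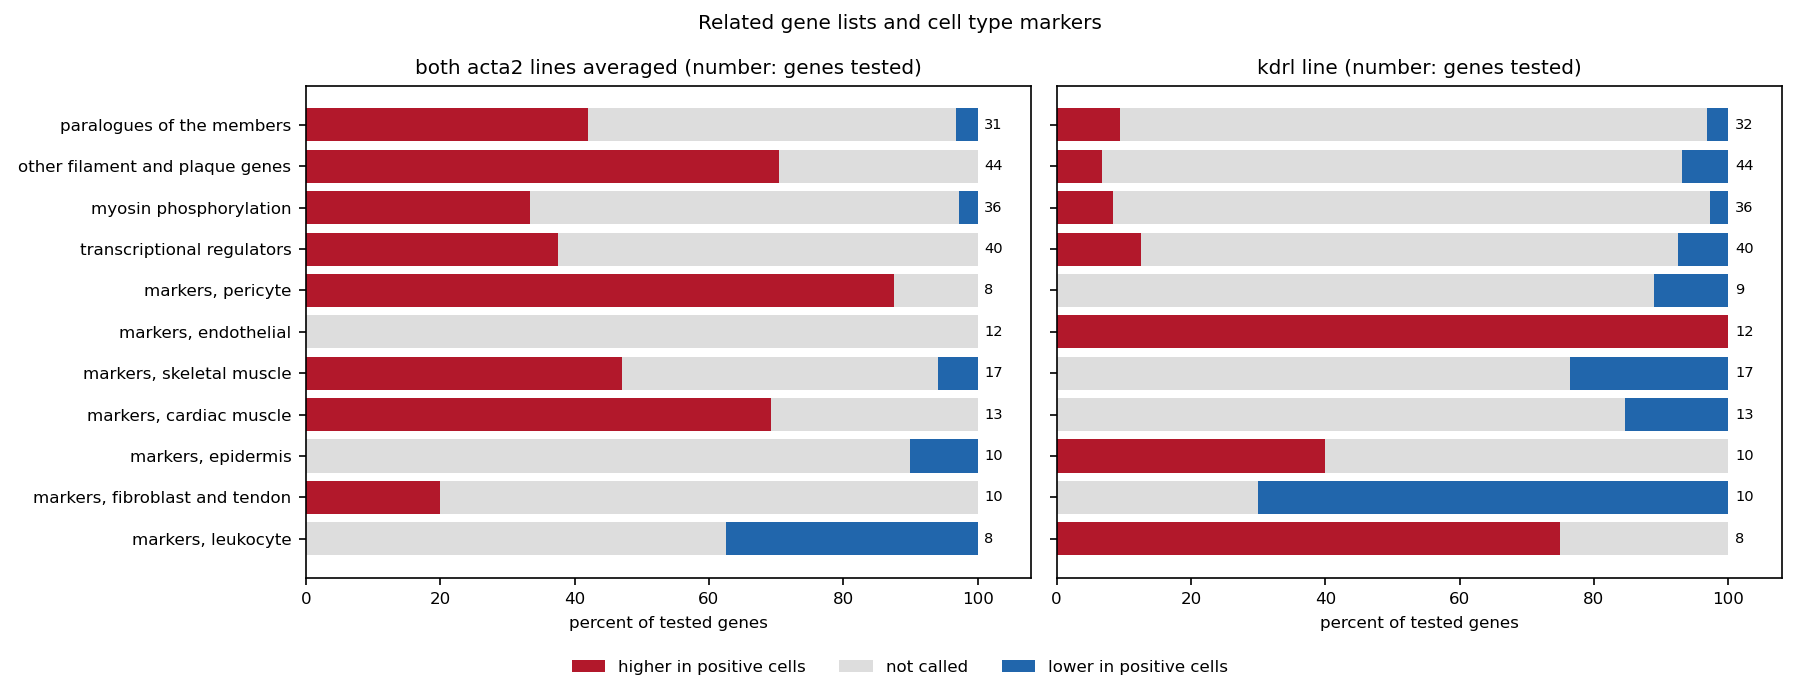
Percent of tested genes of each list called higher (red) or lower (blue) in positive cells, for both acta2 lines averaged (left) and the kdrl line (right), with the number tested beside each bar. The filament and plaque list has 31 of 44 genes higher in the mural sorts and 3 of 44 in the endothelial sort. These fits differ in their number of libraries. In the direct difference, acta2 minus kdrl sort effect, 12 of 44 were higher.

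The genes whose pattern was most like that of the members were found over the 11 libraries of both acta2 lines among 15346 genes, as those with the smallest root mean square difference in centred log2 value from the members' median. They were bves at 0.417, desmb at 0.603, tpm4b at 0.631, rasl12 and fbln5 at 0.713 each, mylkb at 0.773, the collagen alpha-6(VI) chain gene LOC100535278 at 0.815 and prkg1b at 0.849. Measured the same way, the members ran from 0.389 (myl9a) to 2.73 (smtnb), but their own values enter that median. The genes listed were chosen on these 11 libraries, so their levels and averaged fold changes there are no independent result. The gene bves, named for blood vessel epicardial substance, averaged 767 and 1538 normalized counts in acta2 and acta2/foxc1b positive libraries, against 43.6 and 28.1 in their negative libraries. The elastic fiber gene fbln5 had a log2 fold change of 5.03 in the averaged fit and -2.58 (limma adjusted p = 0.0073) in the kdrl line.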

How the data were processed

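RNA was measured in 17 libraries. Per the labels' protocols, RNA was extracted with TRIzol; REPLI-g amplified the acta2 and acta2/foxc1b cDNA, which received TruSeq adapters, and kdrl libraries were made with TotalScript from cells fixed before sorting. The submitters' processing notes list bcl2fastq 2.14, CASAVA 1.8.2, featureCounts 1.5.2, DESeq2 1.20.0 and build GRCz11. The aligner, annotation and strand setting were not given in the sources used here. Each deposited signal value is a read count divided by a size factor: in each library 100% of values were whole multiples of a step within 0.1 read, and reads were recovered from it. For each comparison the authors deposited log2 fold changes, p-values and adjusted p-values. Both acta2 comparisons also have a deposited score (the test statistic). In the acta2 line it equals the fold change over its SE within 0.01 for only 4.756% of genes. The deposited fold changes there are thus not the plain estimates behind the score. How they were derived, by shrinkage or otherwise, is not given in the sources used here. No per-sample column was left unmapped.

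Samples were grouped by title. A gene was tested where its value reached 10 in a number of libraries equal to the size of the smaller group, with two-sided limma-trend on log2(value + 1); the count test planned for raw counts was replaced because the values are scaled. Each line was fitted alone; 9 comparisons were made. Software comprised limma 3.58.1, DESeq2 1.42.0 and edgeR 4.0.16 under R 4.3.3, and the fits were tested on simulated data. Named genes were the 10 members, up to 4 called genes of each list with the smallest adjusted p in the averaged fit (up to 2 with the smallest p where none was called), and the 8 genes most like the members among those with a group mean of at least 100. Lists were paralogues, filament and plaque genes, myosin phosphorylation, transcriptional regulators, and markers of pericytes, endothelium, skeletal muscle, cardiac muscle, epidermis, fibroblast and tendon, and leukocytes. Members and lists were chosen with earlier results of these data known. Libraries of the same replicate number had deviations that correlated at 0.475, 0.128 and 0.422 in the kdrl line, which was taken as paired. The main fits with kdrl libraries left this pairing out, so their SEs, intervals and adjusted p are unpaired. Only values given with the replicate block use it. Same-number libraries correlated at 0.01, -0.023 and -0.014 in the acta2 line and at 0.144 and 0.056 in the acta2/foxc1b line, which were taken as unpaired. Yet 4 of 4 acta2/foxc1b libraries correlated best with their own number, as did 6 of 6 in the kdrl line and 0 of 6 in the acta2 line. With only 2 positive acta2/foxc1b libraries, their deviations mirror each other, so these 4 matches are not separate observations. Over genes with a mean of 100 or more, acta2/foxc1b positive replicate 2 correlated at -0.006 with its own number and at 0.108 with negative replicate 3. Over genes with a mean of 100 or more, kdrl positive replicate 2 correlated at 0.07 with its own number and at 0.302 with negative replicate 1. The choice of pairing is thus uncertain, and the block moved the acta2/foxc1b count from 3 to 7. In that block negative replicate 3 had no positive partner, so the sort effect rests on replicates 1 and 2 alone. The fold changes moved as well, for myh11a from 7.43 to 8.38 in log2. Reads of amplified cDNA are not independent molecules, so limits cover counting error only. Sequences and coordinates were not used here.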

Additional observations from a re-analysis of the deposited data

Results flagged for a closer look

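The sort effect, positive over negative cells, of 6 members differed between the mural and the endothelial lines by a limma test of the difference itself, and so these values are set apart for a closer look. Acta2 line minus kdrl line, the differences in log2 fold change were 7.44 for acta2, 6.46 for tagln, 5.92 for cnn1b, 5.90 for smtna, 5.60 for lmod1b and 2.68 for mylka. Acta2/foxc1b line minus kdrl line, they were 8.99 for acta2, 8.84 for tagln, 7.36 for cnn1b, 6.95 for lmod1b, 5.34 for smtna and 4.91 for mylka. In this second set the mylka call was lost without any 1 kdrl library, and the smtna call without any 1 kdrl negative library. The same kdrl libraries enter both, and the acta2 value rests on a sort by its own promoter.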

How the results depend on the processing

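The count of members called in the acta2/foxc1b line, 3, was 0 with edgeR, 8 with DESeq2, 5 with quantile normalization, 7 with the replicate block (0.439% of genes higher) and 8 in a fit of both acta2 lines, added after seeing the data, and ran from 0 to 8 with a library left out; where a lone positive library remained, it was assumed to vary like the negative ones. In the kdrl line the count of 2 was 1 with quantile normalization and 1 to 2 with a library left out. The acta2/foxc1b minus kdrl count of 6 was 4 with the replicate block and ran from 3 to 7 with a library left out. With the block, acta2/foxc1b negative replicate 3 had no positive partner and did not enter the sort effect of its line. The cause of these changes was not tested. The acta2 line had a count of 8 under each setting but the fit of both acta2 lines, where it was 7 without mylka, and the average of both lines 8 throughout. The acta2 minus kdrl count was 6 or 7. In the acta2 line the replicate block changed no member's call, nor did it in the kdrl line, where the pairing was taken as real. The block could not be fitted between positive groups or between negative groups. Of 1364 member values over all settings no called one changed sign, and of the 790 short of the threshold both as reported and in the other setting 35 did. Calls over all genes ranged from 220 to 2942 in the acta2 line (1441 as reported), 0 to 1692 in the acta2/foxc1b line (6), 552 to 3359 in the kdrl line (1485; 3359 with the block) and 832 to 4221 for the average (2178). Depth limits cnn1a in both acta2 lines and the negative libraries for smtna, tagln and lmod1b, which held 2 to 57 reads.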
